A study of Mus musculus with 48 samples.

Results

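Matrix metalloproteinases (Mmp genes), the ADAMTS proteases, the ADAMTS-like proteins and the tissue inhibitors of metalloproteinases (Timp genes) were followed in 48 pretreatment mouse tumours by RNA sequencing. The members were the genes of the deposited count table whose symbol is Mmp, Adamts, Adamtsl or Timp followed by a digit. They came to 45 of 39637 genes, namely 21 Mmp, 15 Adamts, 5 Adamtsl and 4 Timp genes. Female BALB/c mice, 8 to 9 weeks old, gave 1 subcutaneous tumour each; the tumour was removed whole, and the mouse was later classed by its response to antibodies against CTLA4 and PD-L1. The 4 groups of 12 mice were AB1 responders, AB1 non-responders, Renca responders and Renca non-responders. AB1, a mesothelioma line, was removed on day 8 after injection, and Renca, a kidney cancer line, on day 10. All tumours were taken before treatment, so each comparison is between tumours that differed in a later outcome.

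Matrix metalloproteinases are zinc-dependent endopeptidases, most of them secreted as inactive precursors. Collagenases such as Mmp8, Mmp13 and the membrane-bound Mmp14 cut fibrillar collagen, gelatinases (Mmp2, Mmp9) cut denatured and basement membrane collagen, and stromelysins (Mmp3, Mmp10) cut proteoglycans and activate other precursors. ADAMTS enzymes trim procollagens and proteoglycans, ADAMTS-like proteins lack the catalytic domain and bind microfibrils, and the Timp proteins block the active sites of metalloproteinases. In tumours these genes are expressed by fibroblasts, macrophages, neutrophils and the cancer cells, and RNA from whole tumours does not separate these sources. Fewer cells of a type and less RNA per cell cannot be told apart here.

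The libraries held between 16.4 and 27.8 M counts each, M standing for mega. The members took a median of 0.269% of counts in AB1 responders, against 0.444% in AB1 non-responders, and 0.368% in Renca responders, against 0.367% in Renca non-responders. Levels are given as CPM, the usual counts per M library counts, scaled by the TMM method over all 48 libraries, and levels of different genes are compared only as CPM per kilobase of exon. Differences are log2 fold changes from edgeR's quasi-likelihood test, tested over all genes with Benjamini-Hochberg adjustment at 0.05. Summed markers of mesothelium were near 0 in AB1 (medians of 2.62 CPM in responders and 3.27 CPM in non-responders over 8 markers), so the AB1 tumours are called by their line name. The markers Msln and Upk1b were not analysed here, so the sum does not settle whether the tumours kept a mesothelial identity. In AB1 non-responders 3 and 7 the summed skin markers were 956 and 425 CPM, against a median of 11.2 CPM in that group. AB1 responder 12 had a summed fibroblast marker level of 28514 CPM, the highest of its group, where the next was 14731 CPM.

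The most abundant members per kilobase differed between the tumours. In AB1 responders the leading transcripts were Timp1 (median 349 CPM per kilobase), Timp2 (129), Mmp2 (125), Mmp9 (84.4) and Mmp14 (77.2). In AB1 non-responders the order was Timp1 (311 CPM per kilobase), Mmp9 (285), Mmp2 (233) and Timp2 (194). In Renca responders Timp2 led with 296 CPM per kilobase, ahead of Mmp2 with 134, Timp1 with 106, Mmp3 with 98.7 and Mmp14 with 81.1. In Renca non-responders Timp2 (312 CPM per kilobase) and Timp1 (107) were followed by Mmp2 (96.4), Mmp3 (80.5) and Mmp14 (71.4). At the other end, Mmp1a, Mmp1b, Mmp7, Mmp20, Mmp21 and Timp4 were too low to test in any comparison. Mmp1a, the murine interstitial collagenase homologue, had 0 counts in all 12 AB1 responders and 3 counts in AB1 non-responders in total.

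**Figure D1:**
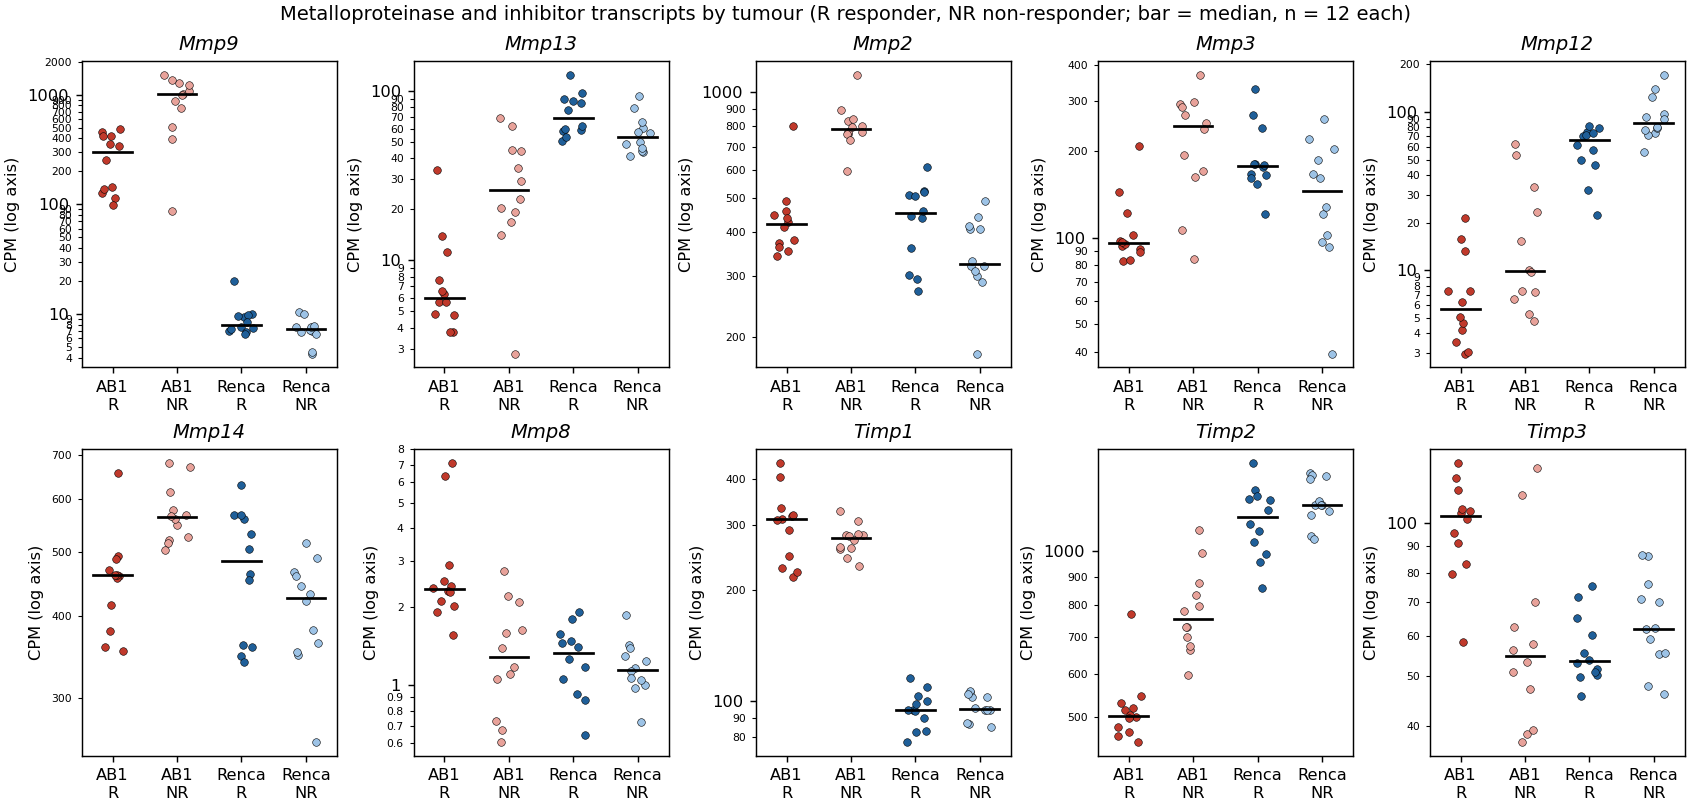
CPM on a log axis for 10 members in each of the 48 libraries, with responders left of non-responders for each tumour and a bar at the median of 12 libraries. Mmp9 lies between 87.0 and 1515 CPM in AB1 tumours and between 4.36 and 19.9 CPM in Renca tumours, and single AB1 responder points for Mmp2, Mmp14 and Timp2 stand within the non-responder range.

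In AB1 tumours both gelatinases, both stromelysins and the collagenase Mmp13 were lower in responders, while the neutrophil collagenase Mmp8 was higher. Of the 32 members tested, 16 were lower and 4 were higher in responders, where 32.7% of all tested genes were lower and 27.7% higher (60.4% changed). The Mmp genes took the larger part: 10 of 14 tested were lower and 1 was higher, with a median log2 difference of -0.57, against a median of -0.04 over all tested genes. Of the 10 tested Adamts genes 2 were lower and 2 higher, and of the 5 Adamtsl genes 3 were lower. The members' count of lower genes stood above the share over all genes, while the whole count of changed members, 20 of 32, was near the share over all genes. The filter on low counts left 13 members untested in AB1, among them Mmp16, Mmp24, Adamts8 and Adamts16.

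Mmp9, gelatinase B, showed the largest fall. Its lowest, median and highest levels were 97.9, 299 and 489 CPM in AB1 responders, against 87.0, 1008 and 1515 CPM in AB1 non-responders. Every responder lay below the median of the non-responders, and the ranges overlapped through non-responder 11, which held the lowest Mmp9 of all AB1 tumours, and through non-responder 5 with 393 CPM. The log2 fold change was -1.67 ± 0.36 (SE, edgeR adjusted p = 0.000340), and it was -1.62 within the first flow cell and -1.68 within the second (adjusted p = 0.0176 and 0.0132). The responders themselves spread widely: responders 4, 5, 7, 8 and 12 had 115, 128, 143, 138 and 97.9 CPM, and the other 7 had 255 CPM or more.

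Mmp13, collagenase 3, fell by a similar factor. It had 3.76, 6.0 and 34.3 CPM (lowest, median, highest) in AB1 responders, against 2.81, 26.1 and 69.3 CPM in AB1 non-responders. Only responder 12 passed the non-responders' median, while non-responder 3, one of the pair with high skin markers, had the lowest value of either group. The log2 fold change was -1.64 ± 0.36 (SE, edgeR adjusted p = 0.000463). It was -1.96 in the second flow cell (adjusted p = 0.00323) and -1.14 in the first, where it did not pass (adjusted p = 0.110). Without responder 12 it was -1.99 (adjusted p = 2.95e-05), and without non-responders 3 and 7 it was -1.78.

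Mmp2, gelatinase A, which is activated at the cell surface by Mmp14 together with Timp2, was 340, 421 and 802 CPM in AB1 responders, against 597, 785 and 1122 CPM in AB1 non-responders. The next responder after responder 12 had 491 CPM, so that apart from this library the groups did not overlap. Its log2 fold change was -0.83 ± 0.11 (SE, edgeR adjusted p = 1.78e-06). Mmp14 was 354, 460 and 658 CPM in AB1 responders and 502, 563 and 680 CPM in AB1 non-responders, a smaller difference of -0.29 ± 0.07 (edgeR adjusted p = 0.00128), which was -0.21 in the second flow cell and did not pass there (adjusted p = 0.0798). Timp2 itself was 451, 503 and 768 CPM in AB1 responders and 596, 754 and 1094 CPM in AB1 non-responders. Timp2 differed by -0.55 ± 0.09 on the log2 scale (edgeR adjusted p = 2.65e-05). All 3 genes of this activation complex were thus lower in responders, and in all 3 responder 12 was the highest responder. With all libraries no member had groups that did not overlap, where 2.74% of all tested genes had; without responder 12 there were 4 such members (Mmp2, Mmp11, Mmp14 and Timp2), where 11.9% of all tested genes had, a setting chosen after seeing the data. Responder 12 was the highest responder for 13 of the 16 lower members, and leaving it out gave 18 lower and 4 higher members.

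The stromelysins moved with them. Mmp3 was 82.7, 95.7 and 208 CPM in AB1 responders and 83.9, 246 and 369 CPM in AB1 non-responders, with every responder below the non-responders' median. The lowest non-responders for Mmp3 were numbers 3 and 5. Its log2 fold change was -0.98 ± 0.17 (SE, edgeR adjusted p = 3.89e-05). Mmp10 was 4.85, 6.52 and 13.7 CPM in AB1 responders, against 5.89, 15.5 and 24.6 CPM in AB1 non-responders, with a log2 fold change of -0.98 ± 0.19 (edgeR adjusted p = 0.000107). Mmp12, the macrophage metalloelastase, was 2.98, 5.67 and 21.4 CPM in AB1 responders and 4.76, 9.89 and 62.8 CPM in AB1 non-responders. Its fall of -1.25 ± 0.47 (edgeR adjusted p = 0.0263) rested on few non-responders: leaving out non-responder 1, 11 or 12 each ended the call (highest adjusted p 0.0679), as did the first flow cell alone (-0.70, adjusted p = 0.403). The Mmp12 call was also lost with the RNA purity ratios as covariates. Mmp11, stromelysin 3, Mmp23, a type II membrane protein, and Mmp27 were lower by -0.45, -0.28 and -0.70 on the log2 scale (edgeR adjusted p = 0.0103, 3.02e-05 and 0.0252).

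A different direction was seen for Mmp8, the collagenase stored in neutrophil granules. It was low throughout, with 1.56, 2.33 and 7.09 CPM in AB1 responders and 0.608, 1.28 and 2.74 CPM in AB1 non-responders. All 12 responders lay above the non-responders' median. The log2 fold change was 1.16 ± 0.28 (SE, edgeR adjusted p = 0.000913), and it passed in both flow cells (1.70 and 0.84, adjusted p = 0.00982 and 0.0397). Neutrophil markers moved with it: 8 of 8 tested were higher in responders, and their sum had a median of 448 CPM (238 to 867) in AB1 responders and 118 CPM (57.9 to 299) in AB1 non-responders. The part of neutrophil number in the Mmp8 difference was not tested.

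Several of these Mmp genes are neighbours. A group of 10 members lies in one cluster on chromosome 9 of GRCm38, chr9:7272514-7699585, in the order Mmp13, Mmp12, Mmp1b, Mmp3, Mmp1a, Mmp10, Mmp8, Mmp27, Mmp20 and Mmp7, all protein-coding except Mmp1a, which GENCODE M21 lists as a polymorphic pseudogene. In AB1 responders Mmp13, Mmp12, Mmp3, Mmp10 and Mmp27 were lower, Mmp8 between Mmp10 and Mmp27 was higher, and the other 4 were near 0. Mmp12 and Mmp1b overlap on opposite strands, and since the strand setting of the counting is not given in the sources used here, reads of the shared part cannot be assigned. The 250 bases before the start site are shown for 3 of the lower genes and for Mmp8, the one that moved the other way, from RefSeq on GRCm38.p6, plus strand, 5′ to 3′. Capitals mark the letters TGANTCA (the AP-1 site, which reads the same on both strands), AGGAAG on either strand (the PEA3 site of ETS factors) and TATAAA on either strand. Different motifs did not overlap in any member's window.
Mmp13: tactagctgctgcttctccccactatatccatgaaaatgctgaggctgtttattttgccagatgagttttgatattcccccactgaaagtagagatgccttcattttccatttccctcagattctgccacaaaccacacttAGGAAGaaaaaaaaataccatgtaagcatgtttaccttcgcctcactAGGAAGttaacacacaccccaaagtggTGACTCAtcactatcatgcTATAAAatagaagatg
Mmp3: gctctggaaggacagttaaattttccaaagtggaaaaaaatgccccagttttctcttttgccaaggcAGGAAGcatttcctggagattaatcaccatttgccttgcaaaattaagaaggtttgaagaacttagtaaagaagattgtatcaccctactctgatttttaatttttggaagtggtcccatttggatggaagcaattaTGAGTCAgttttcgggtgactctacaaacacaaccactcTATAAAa
Mmp10: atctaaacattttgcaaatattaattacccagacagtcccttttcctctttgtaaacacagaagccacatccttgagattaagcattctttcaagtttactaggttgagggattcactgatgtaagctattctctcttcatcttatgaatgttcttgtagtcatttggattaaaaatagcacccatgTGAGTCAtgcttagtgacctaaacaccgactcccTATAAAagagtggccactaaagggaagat
Mmp8: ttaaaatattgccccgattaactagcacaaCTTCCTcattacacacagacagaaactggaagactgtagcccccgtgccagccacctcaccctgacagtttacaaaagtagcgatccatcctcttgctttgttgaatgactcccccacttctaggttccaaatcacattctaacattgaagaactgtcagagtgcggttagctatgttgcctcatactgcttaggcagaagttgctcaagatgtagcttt
These windows end at the RefSeq start, which is not always the start in GENCODE M21. They are chr9:7272264-7272513 for Mmp13, chr9:7445572-7445821 for Mmp3, chr9:7502092-7502341 for Mmp10 and chr9:7558179-7558428 for Mmp8. TGANTCA began 35 bases before the start site in Mmp13, 46 in Mmp3 and 63 in Mmp10, and these letters are not in the Mmp8 window. The 34 member genes that could be matched had 37 windows. TGANTCA was in 8 of these 37, against 6.75% of all 32851 windows of this length. The 8 genes were all in the chromosome 9 cluster (Mmp1a, Mmp1b, Mmp3, Mmp7, Mmp10, Mmp12, Mmp13 and Mmp20). Mmp27, also lower in AB1 responders, was not among them, and a relation of these letters to the direction of change was not tested. AGGAAG was in 12 of the 37 member windows (11 genes) and in 29.5% of all windows, and TATAAA in 10 member windows (10 genes) and in 12.4% of all windows. A match is a description of the letters and not a measured site.

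**Figure D2:**
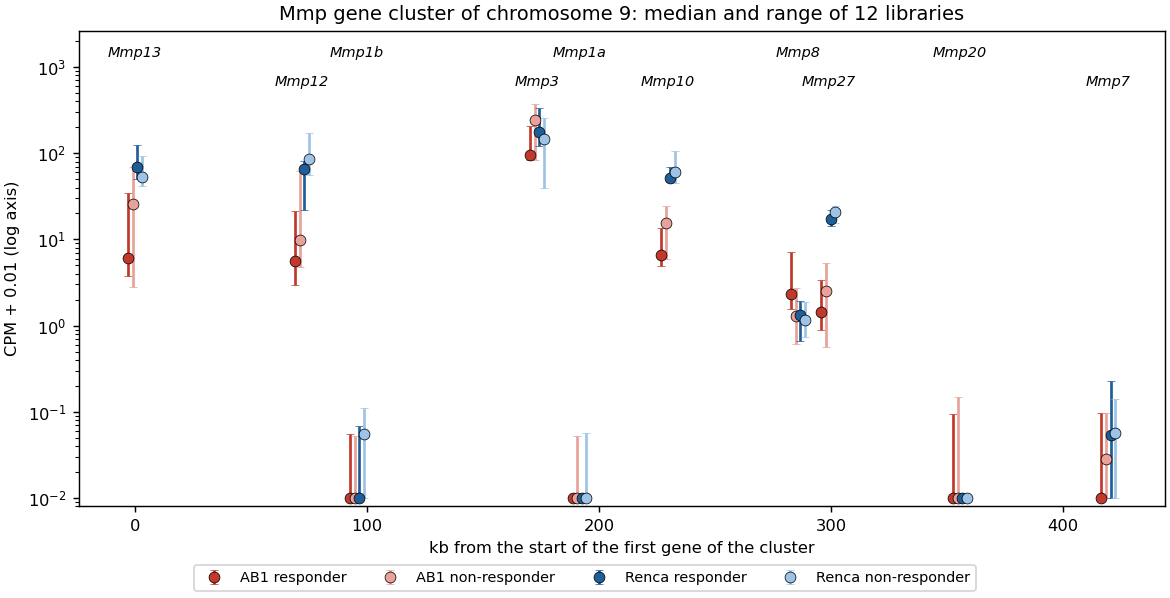
Levels of the 10 Mmp genes of the chromosome 9 cluster, placed by distance in kilobases from the start of the first gene, as the median and range of 12 libraries per group on a log axis of CPM + 0.01. In AB1 the responder medians lie below the non-responder medians for Mmp13, Mmp12, Mmp3, Mmp10 and Mmp27 and above for Mmp8, and 4 genes lie near 0.

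The inhibitors did not move as one. Timp3, which is held in the matrix and also inhibits ADAMTS enzymes and Adam17, was higher in AB1 responders, with 58.4, 103 and 131 CPM against 37.2, 54.8 and 128 CPM in AB1 non-responders. All 12 responders exceeded the non-responders' median, and the pair of non-responders with high skin markers, numbers 3 and 7, had 128 and 114 CPM, the highest of that group. The log2 fold change was 0.70 ± 0.19 (SE, edgeR adjusted p = 0.00346), and without this pair it was 1.01 (adjusted p = 1.73e-06). Within the first flow cell it was 0.66 and did not pass (adjusted p = 0.139), and within the second it was 0.76 (adjusted p = 0.0124). Timp1, an inhibitor induced by inflammatory cytokines, was 216, 310 and 441 CPM in AB1 responders and 232, 276 and 328 CPM in AB1 non-responders. The log2 difference of Timp1 was 0.18 ± 0.10 and did not pass (edgeR adjusted p = 0.0995). Within the second flow cell it was 0.33 and passed (adjusted p = 0.00584), while in the first it was 0.01 (adjusted p = 0.957).

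Summed per kilobase, the balance of inhibitor to protease transcripts differed between the AB1 groups. The Mmp sum was 298, 386 and 564 CPM per kilobase (lowest, median, highest) in AB1 responders, against 489, 785 and 1032 in AB1 non-responders, while the Timp sum was 375, 494 and 631 in responders and 476, 518 and 576 in non-responders. The ratio of Timp sum to Mmp sum had a median of 1.21 (0.870 to 1.78) in AB1 responders and 0.632 (0.465 to 1.11) in AB1 non-responders. Mmp9 made up a median of 21.9% of the Mmp sum in responders and 36.4% in non-responders. In Renca tumours the same ratio had a median of 0.949 (0.742 to 1.11) in responders and 1.11 (0.893 to 1.36) in non-responders. These sums are descriptions without a test.

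Among the ADAMTS genes of AB1 tumours, both directions occurred. Adamts1, which cuts versican and aggrecan, was 46.7, 63.4 and 107 CPM in AB1 responders and 82.8, 97.5 and 233 CPM in AB1 non-responders, a log2 fold change of -0.66 ± 0.18 (SE, edgeR adjusted p = 0.00253); the highest value belonged to non-responder 3, and within the second flow cell the difference was -0.38 and did not pass (adjusted p = 0.117). Adamts15, another proteoglycanase, was 15.9, 23.5 and 64.9 CPM in responders and 12.3, 49.7 and 68.5 CPM in non-responders (-0.77 ± 0.23, edgeR adjusted p = 0.00583), and it passed in neither flow cell alone (adjusted p = 0.0643 and 0.0703). Adamts14, a procollagen N-propeptidase, was higher in responders, with 47.3, 55.6 and 66.7 CPM against 40.1, 47.0 and 62.6 CPM in non-responders (0.26 ± 0.07, edgeR adjusted p = 0.00191), as was Adamts7, which cuts cartilage oligomeric matrix protein (0.31 ± 0.11, edgeR adjusted p = 0.0131). Adamts7 was the passing member whose sign differed between the flow cells, with -0.02 in the first (adjusted p = 0.899) and 0.58 in the second (adjusted p = 0.00229). The aggrecanase Adamts4 had a log2 difference of 0.05 ± 0.09 (edgeR adjusted p = 0.668). Adamts2, the main procollagen I N-propeptidase, did not pass (-0.39 ± 0.21, adjusted p = 0.106), and neither did Adamtsl4 (0.34 ± 0.18, adjusted p = 0.0972).

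Of the ADAMTS-like genes, Adamtsl3 gave the clearest fall. It had 6.0, 7.51 and 11 CPM in AB1 responders and 10.3, 14.8 and 21.3 CPM in AB1 non-responders, with all responders below the non-responders' median. The log2 fold change was -0.87 ± 0.12 (SE, edgeR adjusted p = 1.65e-06), and it passed in both flow cells (-0.85 and -0.86, adjusted p = 0.000819 and 0.00165). Adamtsl5 fell by 0.39 and Adamtsl2, a fibrillin-binding protein present at a median of 0.311 CPM in responders and 0.569 CPM in non-responders, fell by 0.92 on the log2 scale (edgeR adjusted p = 0.000662 and 0.00948). Over the flow cells, 18 of the 19 passing members that could be tested in both kept their sign in both, and 9 passed in both (Mmp2, Mmp3, Mmp8, Mmp9, Mmp10, Mmp23, Adamtsl3, Adamtsl5 and Timp2).

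**Figure D3:**
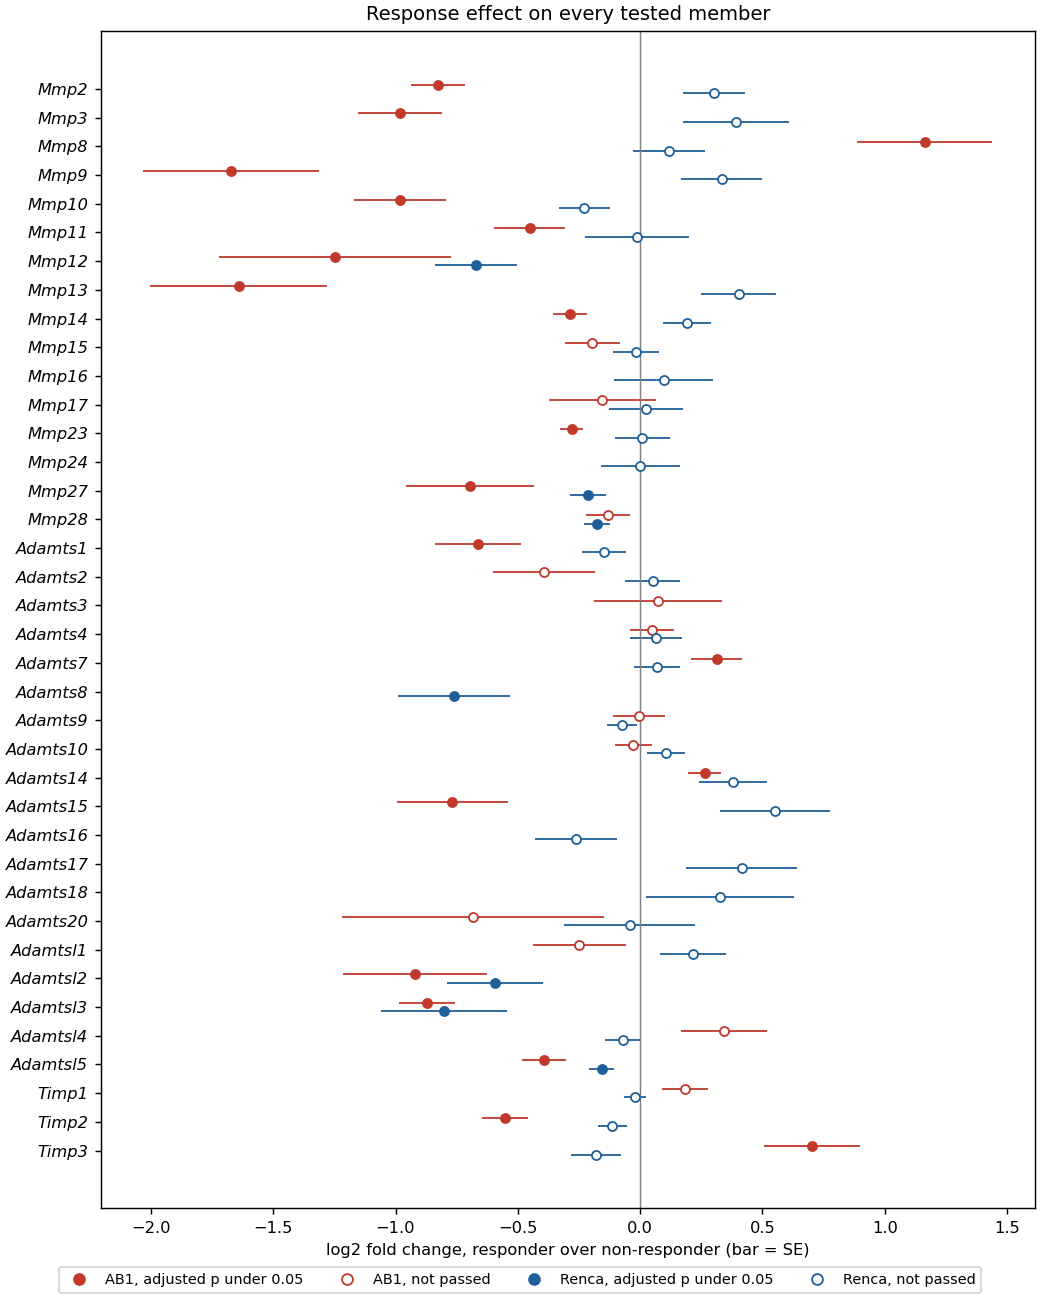
Log2 fold change of responder over non-responder with its standard error for every member tested in AB1 (red) or Renca (blue); filled points passed the adjusted p threshold of 0.05. In AB1 16 members are filled to the left of 0 and 4 to the right, and in Renca 7 are filled to the left and 0 to the right.

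In Renca tumours the response differences were smaller and fewer. Of 37 members tested, 7 were lower in responders and 0 were higher, where 8.52% of all tested genes were lower and 11.1% higher (19.6% changed). The median log2 difference over the tested members was 0.00, against -0.01 over all tested genes. Before adjustment 12 of the 37 members had p below 0.05 in edgeR's quasi-likelihood test, as did 5303 of all 15778 genes tested. DESeq2 called 2 members higher, where it called 12.3% of all tested genes higher. The 7 lower members were Mmp12, Mmp27, Mmp28, Adamts8, Adamtsl2, Adamtsl3 and Adamtsl5.

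Mmp12 was again lower in responders, and at a higher level than in AB1. It had 22.2, 66.1 and 82.0 CPM in Renca responders and 55.9, 85.6 and 171 CPM in Renca non-responders, with all responders below the non-responders' median. The log2 fold change was -0.67 ± 0.17 (SE, edgeR adjusted p = 0.00869), and it was -0.68 and -0.66 within the flow cells, where it did not pass (adjusted p = 0.220 and 0.123). Macrophage markers went the other way, with 7 of 10 tested higher in Renca responders and 0 lower (8 of 10 higher in AB1 responders). Within the groups, Mmp12 and the mean level of 10 macrophage markers had a Pearson r of -0.52 in Renca responders (adjusted permutation p = 0.179; Spearman rho -0.54, adjusted p = 0.208; r = -0.35 without the 2 farthest tumours), against -0.73 in Renca non-responders (adjusted permutation p = 0.0307; rho -0.69, adjusted p = 0.0701; r = -0.59 without the 2 farthest tumours). Within the flow cells of 6 tumours r was -0.51 and -0.36 in Renca responders, against -0.67 and -0.88 in Renca non-responders. In AB1 the same relation had an r of -0.01 in responders, against 0.65 in non-responders, the opposite sign to Renca (adjusted permutation p = 0.992 and 0.0699; rho 0.05 and 0.61, adjusted p = 0.885 and 0.161; r without the 2 farthest tumours -0.36 and 0.51; r within the flow cell of 7 tumours -0.08 and 0.53). This relation belongs to a family of 28 that is described with the other marker relations.

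Adamts8, an anti-angiogenic member of the family, was 0.429, 1.08 and 3.07 CPM in Renca responders and 0.871, 1.85 and 3.59 CPM in Renca non-responders (-0.76 ± 0.23, edgeR adjusted p = 0.0217). Within the first flow cell it differed by -0.40 (adjusted p = 0.477) and within the second by -1.20 (adjusted p = 0.0233). Adamtsl3 was near the limit of detection in Renca, with medians of 0.414 CPM in responders and 0.741 CPM in non-responders, and differed by -0.80 ± 0.26 (edgeR adjusted p = 0.0318). Adamtsl2 (-0.59, adjusted p = 0.0356), Adamtsl5 (-0.16, adjusted p = 0.0281), Mmp28, or epilysin (-0.17, adjusted p = 0.0229) and Mmp27 (-0.21, adjusted p = 0.0454) were also lower, the last 3 by small amounts. Mmp12 and Adamts8 kept their calls whichever single library was left out, whereas Mmp27, Adamtsl2, Adamtsl5 and Mmp28 lost theirs without 18, 11, 8 and 4 of the 24 libraries in turn. With the RNA purity ratios as covariates no member passed, Mmp12 and Adamts8 included, where 1.29% of all tested genes did. Within the first flow cell no gene of the 15590 tested passed in edgeR's test, members included (9 members and 2803 genes had an unadjusted p below 0.05). Within the second, 8.19% of all tested genes passed, and of the 7 members only Adamts8 did, beside Mmp15, a membrane-type enzyme that is not among the 7 (-0.34, edgeR adjusted p = 0.0253).

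Mmp9, Mmp13 and Mmp2, lower in AB1 responders, did not pass in the main fit of Renca. Mmp9 was 6.56, 8.02 and 19.9 CPM in Renca responders and 4.36, 7.27 and 10.4 CPM in Renca non-responders (0.33 ± 0.17, edgeR adjusted p = 0.161). Mmp13 was 50.6, 69.7 and 124 CPM in Renca responders and 41.1, 53.2 and 92.9 CPM in Renca non-responders (0.40 ± 0.15, edgeR adjusted p = 0.0677), with 11 of 12 responders above the non-responders' median. It passed as higher in Renca responders with DESeq2 and with the replicate number as a block (0.39, edgeR adjusted p = 0.0139). The same call was gained in 4 of 24 fits with a single library left out. Mmp2 was 271, 452 and 611 CPM in Renca responders and 180, 325 and 490 CPM in Renca non-responders (0.30 ± 0.13, edgeR adjusted p = 0.0970). The inhibitors Timp1, Timp2 and Timp3 had log2 differences of -0.02, -0.11 and -0.18 in Renca, with edgeR adjusted p of 0.782, 0.180 and 0.221.

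The difference between the tumours' response effects was tested directly over all 48 libraries, as the AB1 effect minus the Renca effect. Of 39 members tested, 11 had a lower and 2 a higher effect in AB1, where 18.6% of all tested genes were lower and 22.9% higher (41.6% differed). Mmp2 stood first by p, with -1.10 ± 0.17 (SE, edgeR adjusted p = 2.64e-06), followed by Mmp13 with -2.02 ± 0.39 (adjusted p = 6.04e-05), Adamts17 with -2.20 ± 0.44 (adjusted p = 9.95e-05), Mmp9 with -1.98 ± 0.41 (adjusted p = 0.000175) and Mmp3 with -1.34 ± 0.28 (adjusted p = 0.000180). Timp3 had a difference of 0.92 ± 0.22 (adjusted p = 0.000989) and Mmp8 of 1.08 ± 0.32 (adjusted p = 0.00629). Adamts17 was low throughout, at medians of 0.108 CPM in AB1 responders, 0.324 CPM in AB1 non-responders, 1.37 CPM in Renca responders and 0.945 CPM in Renca non-responders. Adamts1 missed the threshold (-0.48 ± 0.20, adjusted p = 0.0515), as did Adamtsl4 (0.45 ± 0.19, adjusted p = 0.0582).

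Of the 31 members tested in both tumours, 5 were lower in responders of both: Mmp12, Mmp27, Adamtsl2, Adamtsl3 and Adamtsl5. Of the 14940 genes tested in both, 4.59% were lower in both, 27.4% were lower and 18.4% higher in AB1 without passing in Renca, 2.76% were lower in Renca without passing in AB1, and 34.4% passed in neither. A further 11 were lower and 4 higher in AB1 without passing in Renca, 1 (Mmp28) was lower in Renca without passing in AB1, and 10 passed in neither. For the 5 shared members the direct test of the difference did not pass (edgeR adjusted p = 0.395 for Mmp12, 0.162 for Mmp27, 0.532 for Adamtsl2, 0.947 for Adamtsl3 and 0.118 for Adamtsl5). The estimate for Adamtsl3 was -0.04 ± 0.35 on the log2 scale, and its error was large beside the effects themselves.

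**Figure D4:**
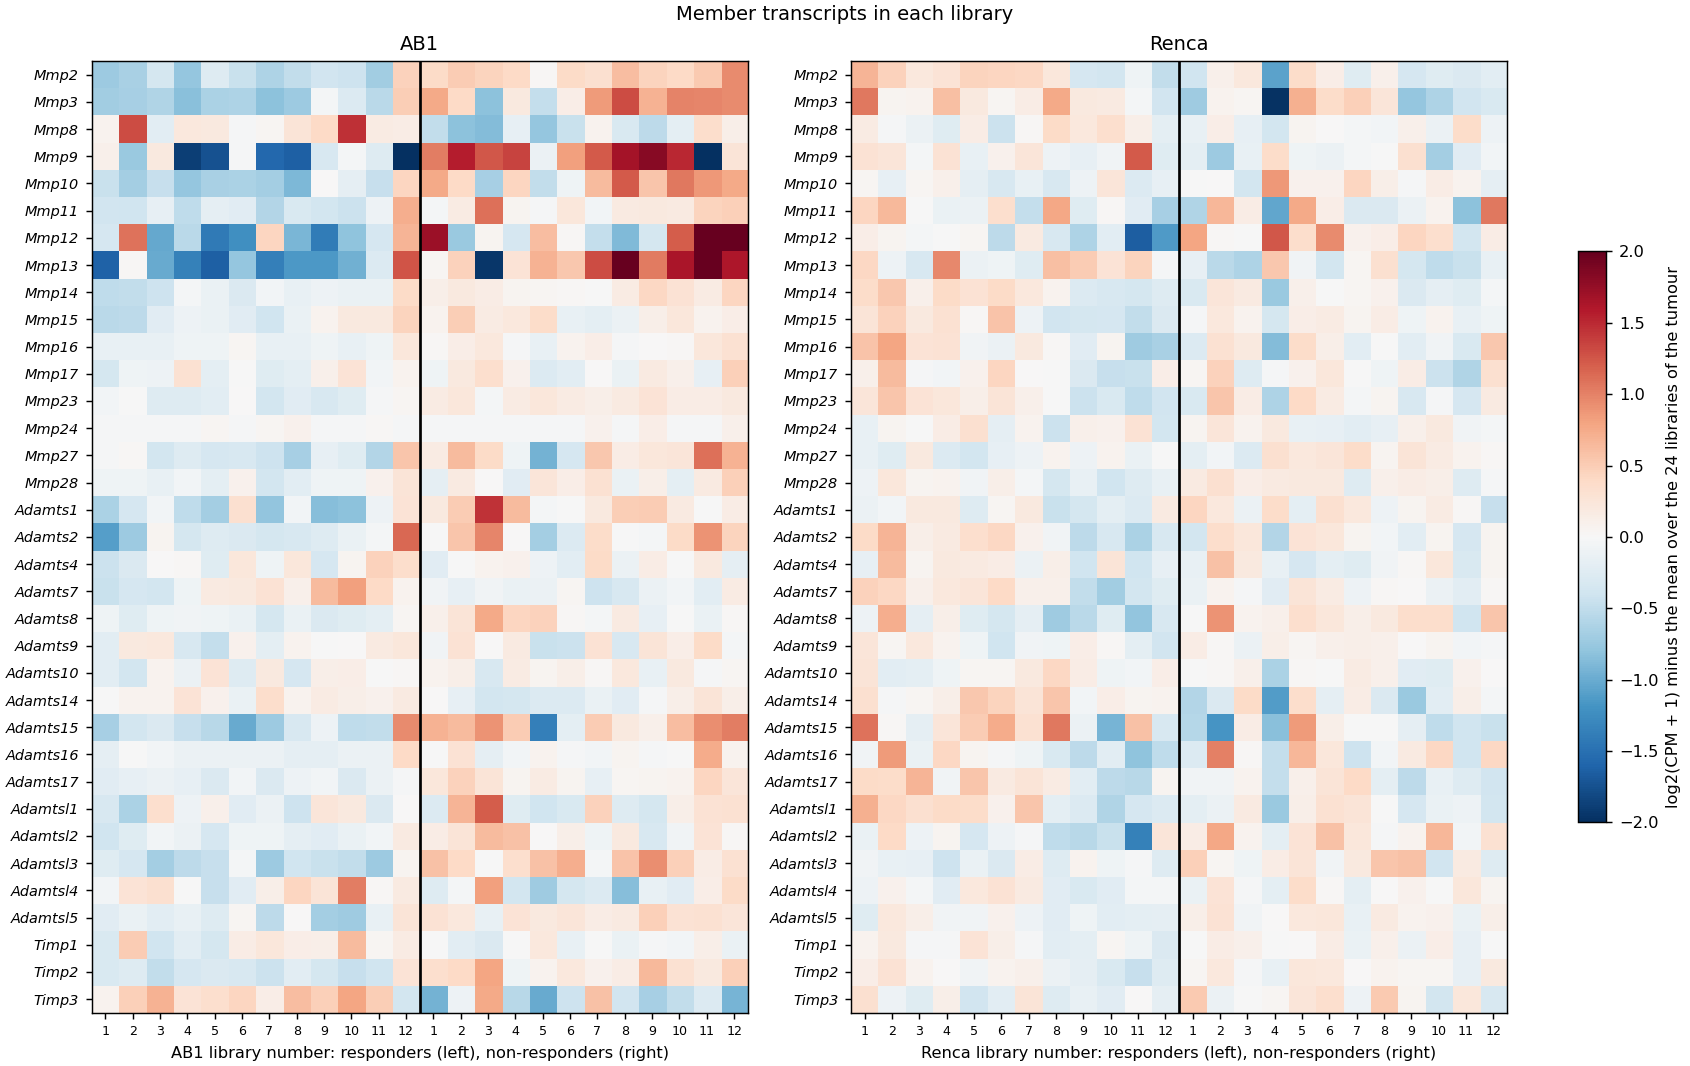
Log2(CPM + 1) of the members with an edgeR mean level of at least 1 CPM within either tumour, minus the mean over the 24 libraries of the tumour, with one column per library and responders left of the black line. In the AB1 panel responder 12 is coloured like the non-responders in Mmp2, Mmp3, Mmp11 and Mmp13 but not in Mmp9, and non-responder 11 is blue in Mmp9 and red in Mmp12 and Mmp13.

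AB1 and Renca tumours differed at most members irrespective of response. Of 39 members tested, 13 were higher and 23 lower in AB1, where 42.2% of all tested genes were higher and 39.3% lower (81.4% changed). The median log2 difference was -0.77 over the tested members and 0.03 over all tested genes. For 13 members the 24 AB1 and 24 Renca libraries did not overlap, 4 of them higher in AB1 (Mmp9, Timp1, Adamts7 and Adamtsl3) and 9 lower, where 21.1% of all tested genes had such ranges. Tumour line, day of removal and flow cell cannot be told apart in this comparison.

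Mmp9 had the largest excess in AB1, with 87.0 CPM in the lowest AB1 library, against 19.9 CPM in the highest Renca library (log2 5.97 ± 0.30, edgeR adjusted p = 1.60e-23). Adamtsl3 followed with 4.26 ± 0.14 (adjusted p = 1.74e-31) and Timp1 with 1.60 ± 0.06 (adjusted p = 5.55e-29). In the other direction Adamts16 had 23 and 59 counts in all AB1 responders and all AB1 non-responders together, with median levels of 0.0436 and 0.120 CPM, whereas its medians were 15 CPM in Renca responders and 17.6 CPM in Renca non-responders (fitted log2 -6.86, which depends on the prior count at such levels). Mmp24, a membrane-type enzyme described in neurons, was at 0 counts in 8 of 12 AB1 responders and 9 of 12 AB1 non-responders (5 and 7 counts in all), and had medians of 1.10 CPM in Renca responders and 1.03 CPM in Renca non-responders. Mmp16, another membrane-type enzyme (-4.75), Mmp27 (-3.17), Adamtsl2 (-2.78), Mmp12 (-2.58), Mmp10 (-2.47), Adamts17 (-2.32), Adamts8 (-2.16) and Mmp17 (-1.97) were also lower in AB1, with edgeR adjusted p of 3.46e-11 or less.

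For the members whose response effect differed between the tumours, the AB1 against Renca value must also differ between responders and non-responders. The values of Mmp2, Mmp3 and Timp3 restate that difference and are not separate support for it. Mmp2 differed by 0.02 ± 0.14 between AB1 and Renca responders (edgeR adjusted p = 0.885) and by 1.19 ± 0.12 between AB1 and Renca non-responders (adjusted p = 1.04e-09). Mmp3 was lower in AB1 among responders (-0.83 ± 0.16, adjusted p = 3.9e-05) and higher among non-responders (0.61 ± 0.25, adjusted p = 0.0299). Timp3 was higher in AB1 among responders (0.82 ± 0.11, adjusted p = 1.1e-07), and among non-responders the estimate was -0.05 ± 0.19 (adjusted p = 0.825). Timp1, by contrast, was 1.68 ± 0.10 among responders and 1.5 ± 0.05 among non-responders. The make-up of the inhibitor pool differed accordingly: Timp1 was a median of 70.0% of the Timp sum per kilobase in AB1 responders, against 60.1% in AB1 non-responders. In Renca it was 25.2% in responders and 24.9% in non-responders, where Timp2 took 72.9% in each.

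Marker genes of several cell types moved with these members. Within groups, 28 relations between a member and a marker list were computed (log2(CPM + 1), 12 tumours each, permutation tests with Benjamini-Hochberg adjustment over the 28), and the pairs were chosen after their values were seen. Mmp9, which osteoclasts express strongly, followed the mean level of 10 osteoclast markers such as Ctsk and Acp5 in AB1, with a Pearson r of 0.98 in responders and 0.95 in non-responders (adjusted permutation p = 0.000187 in each; Spearman rho 0.94 and 0.92, adjusted p = 0.000467 in each). Without the 2 tumours farthest from the median marker level r was 0.97 in responders and 0.86 in non-responders, and within the flow cell with 7 tumours of each group it was 0.97 in both, the other flow cell holding too few tumours (5). In Renca r was -0.25 in responders and 0.30 in non-responders (adjusted p = 0.665 and 0.519; rho -0.22 and 0.13, adjusted p = 0.777 and 0.873; r without the 2 farthest tumours -0.03 and 0.07). The summed osteoclast markers had a median of 846 CPM (571 to 1234) in AB1 responders and 2070 CPM (672 to 3400) in AB1 non-responders, and 7 of 10 were lower and 1 higher in AB1 responders, none being at 0 counts in any group. Ctsk, the collagen-cutting cathepsin of osteoclasts, averaged 291 ± 127 CPM in AB1 responders and 1006 ± 444 CPM in AB1 non-responders (SD, n = 12 each, edgeR adjusted p = 1.04e-05). Mmp9 and the neutrophil markers had an r of 0.08 in AB1 responders, against -0.47 in AB1 non-responders (adjusted permutation p = 0.924 and 0.246; rho -0.06 and -0.16, adjusted p = 0.885 and 0.873; r without the 2 farthest tumours 0.12 and -0.23; r within the flow cell of 7 tumours 0.39 and -0.85).

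Mmp2 followed 10 fibroblast markers in Renca, with r of 0.96 in responders and 0.90 in non-responders (adjusted permutation p = 0.000187 and 0.00217; Spearman rho 0.95 and 0.81, adjusted p = 0.000467 and 0.0169). Without the 2 farthest tumours r was 0.95 and 0.73, and within the flow cells of 6 tumours it ran from 0.92 to 0.94 in responders and was 0.99 and 0.59 in non-responders. In AB1 responders r was 0.82 (adjusted p = 0.0699; rho 0.33, adjusted p = 0.567) and rested on the farthest tumours, since it was -0.06 without them. In AB1 non-responders r was 0.62 (adjusted p = 0.0699; rho 0.52, adjusted p = 0.213; r = 0.54 without the 2 farthest tumours). The fibroblast marker sum had a median of 11949 CPM in AB1 responders and 24788 CPM in AB1 non-responders (8 of 10 markers lower, 1 higher), and 27445 CPM in Renca responders and 23066 CPM in Renca non-responders, where no marker passed. Mmp8 and 11 neutrophil markers had an r of 0.61 in AB1 responders (adjusted permutation p = 0.0916; rho 0.57, adjusted p = 0.175; r = 0.70 without the 2 farthest tumours), against 0.81 in AB1 non-responders (adjusted permutation p = 0.0102; rho 0.71, adjusted p = 0.0701; r = 0.65 without the 2 farthest tumours). The remaining pairs, Mmp13 with markers of bone-forming cells and Timp3 with fibroblast markers, passed in no group, with r from -0.56 to 0.68 (lowest adjusted permutation p 0.0699). Mmp8 with neutrophil markers and Mmp9 with neutrophil markers passed in neither Renca group. The part of these cell types in the response differences was not tested.

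**Figure D5:**
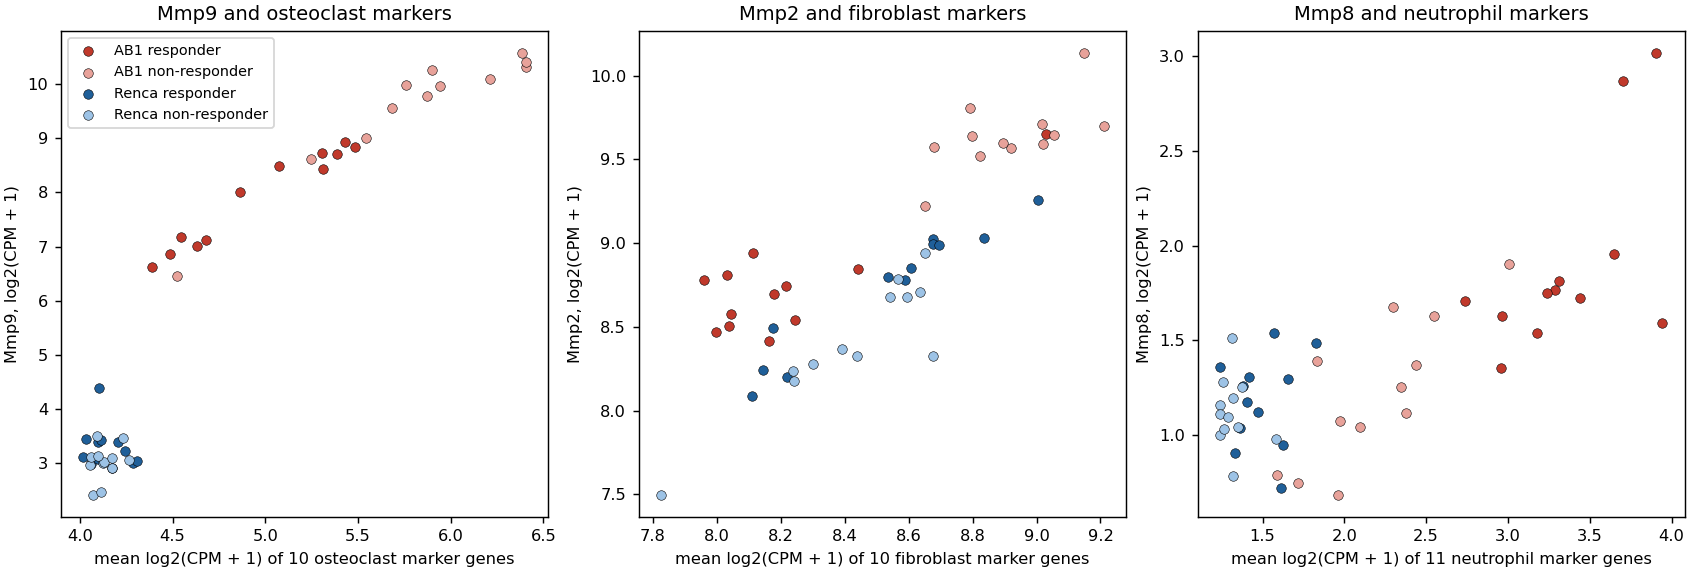
Log2(CPM + 1) of Mmp9, Mmp2 and Mmp8 in each of the 48 tumours against the mean log2(CPM + 1) of osteoclast, fibroblast and neutrophil markers, coloured by group. The AB1 points of Mmp9 lie along one line (r = 0.98 in responders and 0.95 in non-responders), and the Renca points form a compact group at low Mmp9.

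The substrates and partners of these enzymes were examined with gene lists, whose counts stand beside 32.7% lower and 27.7% higher among all tested genes in AB1, and 8.52% lower and 11.1% higher in Renca. Of 21 fibrillar collagen and collagen assembly genes tested in AB1, 15 were lower and 1 higher in responders, with a median log2 difference of -0.73; Col3a1, the chain of type III collagen, averaged 6722 ± 2334 CPM in responders and 13194 ± 2238 CPM in non-responders (SD, n = 12 each). Of 14 microfibril and elastic fibre genes 11 were lower and 0 higher, among them Mfap2, a microfibril glycoprotein (-1.57 ± 0.19, edgeR adjusted p = 6.39e-07). Of 18 basement membrane genes 11 were lower and 1 higher, and of 9 proteoglycan and hyaluronan genes 6 were lower and 2 higher. In Renca 9 of 17 basement membrane genes were lower, with small shifts (Agrn, the heparan sulphate proteoglycan agrin, differed by -0.15 ± 0.03, adjusted p = 0.00340), while 2 of 21 fibrillar collagen genes and 1 of 14 microfibril genes were lower. In the direct test of the difference, 12 of 21 fibrillar collagen genes had a lower and 1 a higher effect in AB1, 9 of 14 microfibril genes a lower and 0 a higher effect, and 6 of 18 basement membrane genes a lower and 2 a higher effect, where 18.6% of all tested genes were lower and 22.9% higher. The fibroblast marker sums given above were also lower in AB1 responders. Col1a1, Col1a2 and Col3a1 are in both the fibroblast and the fibrillar collagen list, so these sums are not separate from that list. The part of fibroblasts in the counts was not tested.

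Other proteases were examined in the same way. Of 11 other metalloproteinases that shed or cut matrix, 6 were higher and 1 lower in AB1 responders, led by Adam17, the TNF-releasing sheddase, with 224 ± 30.7 CPM in responders and 145 ± 15.4 CPM in non-responders (log2 0.67 ± 0.08, edgeR adjusted p = 5.67e-07). Of 11 serine and cysteine proteases 5 were higher and 4 lower, with Ctss, the cathepsin of antigen-presenting cells, at 2113 ± 417 CPM in AB1 responders and 921 ± 338 CPM in AB1 non-responders (1.25 ± 0.17, adjusted p = 2.82e-06) and at 965 ± 199 CPM in Renca responders and 687 ± 129 CPM in Renca non-responders (0.48 ± 0.10, adjusted p = 0.00351). Of 11 activators and convertases 4 were higher and 5 lower in AB1 responders: Plat, tissue plasminogen activator, averaged 60.3 ± 10.3 CPM in responders and 99.2 ± 20.7 CPM in non-responders, and Furin, which processes the precursors of membrane-type enzymes, 211 ± 25.2 CPM in responders and 176 ± 18.2 CPM in non-responders (SD, n = 12 each; edgeR adjusted p = 3.34e-06 and 0.000228). Of 17 other protease inhibitors and surface regulators 3 were higher and 5 lower. The serine and cysteine proteases, the activators and these inhibitors each held calls in both directions, with 9 of 11, 9 of 11 and 8 of 17 changed where 60.4% of all tested genes changed. Of 26 cytokines and transcription factors known to induce metalloproteinases, 13 were higher and 5 lower in AB1 responders (Tgfb1 0.60, Hif1a 0.93 and Nfkb1 0.40 on the log2 scale).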

How the data were processed

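RNA from whole frozen tumours was sequenced after column purification and Illumina library preparation, per the labels' protocols. The deposited file holds raw counts per gene for 48 libraries, made by the authors and not normalised. Per the submitters' processing notes the tools were HISAT2 2.0.4, StringTie 1.3.0 and bcl2fastq 2.18.0.12. Those notes list GRCh37 and hg19, which are human, whereas the gene identifiers are mouse. Which mouse build, annotation, counting tool and strand setting were used is not given in the sources used here. Of 39637 identifiers 39461 matched GENCODE M21 (GRCm38), which gave coordinates and exon lengths. Some family genes, such as Adamts5, are not analysed here.

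Counts were tested with edgeR 4.0.16 (TMM scaling, filterByExpr, quasi-likelihood F test, Benjamini-Hochberg adjustment at 0.05), checked on simulated data. Each tumour was fitted with flow cell as a term; the difference of effects and AB1 against Renca used all 48 libraries. Flow cells held 5 and 7 pairs in AB1 and 6 and 6 in Renca. A standard error is the log2 fold change divided by the square root of F. The main fits did not use replicate numbers to pair libraries. No libraries of a group agreed within sampling noise. Eligible for full values were members that passed with a mean of at least 1 CPM (the 15 of smallest p per response comparison, the 8 largest changes each way between tumours), the 8 passing members of smallest p for the difference, a fixed panel (Mmp2, Mmp3, Mmp9, Mmp12, Mmp13, Mmp14, Timp1 to Timp4, Adamts1, Adamts4) and the 3 of smallest p per list. Not every eligible value is printed. Any other member named with values was picked after these were seen. Permutation tests drew 100000 resamples and were two-sided. DESeq2 1.42.0 and other settings served as alternatives. The members, lists and tests were chosen with earlier results of these data known.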

Additional observations from a re-analysis of the deposited data

Results flagged for a closer look

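For 13 of the 39 members tested (33.3%) the responder effect differed between AB1 and Renca in a direct test (edgeR's quasi-likelihood test, AB1 effect minus Renca effect, Benjamini-Hochberg adjustment over all tested genes). Of all tested genes 41.6% differed, so the members' share was not above that of genes in general. The effect was lower in AB1 for Mmp2 (-1.10), Mmp3 (-1.34), Mmp9 (-1.98), Mmp10 (-0.72), Mmp13 (-2.02), Mmp14 (-0.44), Mmp16 (-1.67), Adamts15 (-1.28), Adamts17 (-2.20), Adamts18 (-1.45) and Timp2 (-0.41), all on the log2 scale. It was higher in AB1 for Mmp8 (1.08) and Timp3 (0.92). Mmp16, Adamts17 and Adamts18 were too low to be tested within AB1 alone. Mmp16 had 14 counts in all AB1 responders together and 48 in all AB1 non-responders, Adamts17 had 27 and 107, and Adamts18 had 45 and 111. Adamts15 was lower in AB1 responders (-0.77, adjusted p = 0.00583) and had an estimate of 0.55 in Renca (adjusted p = 0.0860).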

How the results depend on the processing

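Of 1306 values of named members under an alternative, 1196 kept their direction and their side of the threshold, 83 lost and 14 gained a call, and 13 changed sign. In AB1 the 4 higher and 16 lower members became 4 to 5 higher and 14 to 18 lower with any single library left out, 2 up and 13 down in the first flow cell alone (37.6% of all genes called), 5 and 11 in the second alone (50%), 4 and 20 with no filter on low counts (33.9%) and 6 and 22 of 39 tested in one fit of all 48 libraries (62.3%). In Renca the count of lower members, 7 where 19.6% of all genes were called, was 4 with no filter on low counts (7.98%), 0 in the first flow cell (where no gene passed), 2 in the second (8.19%, 1 of them Mmp15, not among the 7), 0 with the RNA purity ratios as covariates (1.29%), 2 in one fit of all 48 libraries (6.15%), and 2 to 8 with any single library left out. The 0 higher Renca members became 2 with DESeq2 (12.3% of all genes higher) and 2 with the replicate number as a block (10.4%). They became 1 in one fit of all 48 libraries (2.96%) and 0 to 2 with any single library left out. The responder and non-responder of the same number shared a flow cell and lane in all 12 pairs of each tumour. Replicate numbers 9 to 12 of each tumour were all on 1 lane (8 libraries). Deviations of same-numbered pairs correlated over 0.1 in 4 of 12 pairs in AB1 and 7 of 12 in Renca (-0.101 to 0.577 and -0.166 to 0.357). Whether the pairs share more than lane and number was not tested. With the replicate number as a block, AB1 had 5 higher and 17 lower members (Adamtsl4 0.37 and Adamts2 -0.40 passed; 58.8% of all genes called). Renca had 2 and 6 (Mmp13 0.39 and Adamts14 0.42 passed, and Mmp27, -0.21, did not, with 17.5% of all genes called). The difference had 3 and 12 (Adamtsl4 0.47 and Adamts1 -0.49 passed, with 41.3% of all genes called). Own-number libraries correlated best for 2 of 12 AB1 and 1 of 12 Renca responders. AB1 against Renca in responders only gave 8 higher and 20 lower of 33 members, where 38.5% of all genes were higher and 38.5% lower. In non-responders only it gave 11 and 21 of 36, where 38.3% were higher and 38.1% lower. Signs changed for estimates near 0: Adamts4 in AB1 (-0.08, first flow cell), Adamts4 and Mmp14 in Renca (-0.04 and -0.03, second flow cell), Adamts1 in Renca (0.02, purity ratios), Timp1 in Renca (0.04 in the first flow cell, and -0.04 to 0.01 with any single library left out), and the Adamts4 difference between tumours (-0.02 with DESeq2, -0.02 with size factors by relative log expression, -0.06 with no filter). Between AB1 and Renca the sign changed for Mmp14 in responders (-0.05) and Timp3 in non-responders (-0.05). Both had passed over all 48 libraries (0.22 and 0.39, edgeR adjusted p = 0.0116 and 0.00392). Mmp3 was -0.10 over all 48 libraries (edgeR adjusted p = 0.633) and 0.61 in non-responders (adjusted p = 0.0299). Fewer libraries enter the flow cell and single-response fits. The response effects of Mmp3, Mmp14 and Timp3 differed between the tumours, so their single-response values must differ too. The cause of the other changes was not tested. Members below 1 CPM rest on few counts per library.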
